A study of Caenorhabditis elegans with 24 samples.

Results

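The large piRNA cluster of *C. elegans* lies in the right arm of chromosome IV. It was taken as every bin of 2 kb on chromosome IV that starts within chrIV:13500001-17200000 (ce11), which gave 1850 of the 50139 bins of the genome and a length of 3.7 Mb. The rule uses position and no measured value, though earlier results of these data were known when it was made. The region holds the starts of 11388 of the 15363 annotated piRNA genes (74.1%), which is 6.16 piRNA genes per bin, against 0.0123 in the 15328 arm bins of chromosomes II, III and V that served as background. Only 383 of its bins lack a piRNA gene, so the name of the region fits its annotation. It also holds 459 protein-coding genes, 123 pseudogenes and 32 tRNA genes.

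Binding was measured by DNA adenine methyltransferase identification (DamID), in which Dam is fused to a protein and methylates GATC sites near the places the protein contacts. BAF-1 was compared with BAF-1(G12T), a mutant that models the form of this protein found in Nestor-Guillermo progeria syndrome. There were 4 fusion groups of 3 replicates, each set against 3 GFP::Dam libraries of the same genotype and tissue. Intestine Dam::BAF-1(G12T) and hypodermis Dam::BAF-1(G12T) were expressed in baf-1(G12T) mutants, and intestine Dam::BAF-1 and hypodermis Dam::BAF-1 in wild-type animals, so that a difference between the proteins is also one between genotypes. In all strains an hsp16.41 promoter stood before the Dam gene, inserted on chromosome II, and a FLP recombinase removed a cassette flanked by FRT sites. FLP was driven by nhx-2 for the intestine and by dpy-7 for the hypodermis, the outer epithelium, from transgenes that sit on chromosome IV at sites not stated in the sources used. Each sample held 4000 L4 larvae, collected after 48 h of growth at 20 °C. DamID reads carry no expression markers, so the tissue labels could not be checked in these values. The paper calls the replicates biological triplicates. Nothing in the labels says that they came from separate cultures, and p-values measure the spread between these samples.

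BAF-1 is a small protein that binds double-stranded DNA without a preferred sequence, and it ties chromatin to lamin and to LEM-domain proteins of the inner nuclear membrane. In *C. elegans* the arms of the autosomes are rich in heterochromatin and lie close to the nuclear periphery. piRNAs guide the Argonaute PRG-1 against foreign transcripts in the germ line, and each is made from its own small transcription unit, often preceded by a promoter motif whose core is CTGTTTCA. Hypodermis and intestine are somatic tissues.

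The next sequences are the piRNA genes of the region with the highest mean ratio in 3 of the fusion groups, since a piRNA gene is the unit that fills the region. Each shows the 60 bases before the gene and then its 21 bases, read on the strand of the gene (RefSeq genome, WBcel235, the build of the files). Capitals mark the motif CTGTTTCA. 21ur-14945 (chrIV:14517173-14517253, minus strand, highest in hypodermis Dam::BAF-1(G12T)), 21ur-1372 (chrIV:16601392-16601472, minus strand, highest in intestine Dam::BAF-1(G12T)) and 21ur-6994 (chrIV:14169210-14169290, plus strand, highest in intestine Dam::BAF-1) read as follows.
21ur-14945: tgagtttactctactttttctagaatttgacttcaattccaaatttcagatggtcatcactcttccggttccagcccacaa
21ur-1372: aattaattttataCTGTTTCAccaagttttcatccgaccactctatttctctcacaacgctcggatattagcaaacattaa
21ur-6994: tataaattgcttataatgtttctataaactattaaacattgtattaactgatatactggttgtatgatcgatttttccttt
Of these, 21ur-1372 has the motif, with 39 bases between it and the gene. The motif was searched on the strand of each gene in the 60 bases before its start, and it stood before 3827 of the 11388 piRNA genes of the region (33.6%), with a median of 38.0 bases in between. It stood before 33.3% of the 3975 piRNA genes elsewhere and before 3 of the 459 protein-coding genes of the region. Over whole bins, on both strands, it was present in 71.6% of the region's bins, against 9.14% of the arm bins of II, III and V and 14.5% of all bins.

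Stretches of 300 bases from 4 bins are shown because they carry the extremes of the values given further on. All are from the plus strand of WBcel235, and capitals mark GATC, the site that Dam methylates and the only place where this assay can read. The stretch chrIV:16826324-16826623 lies in the bin with the highest ratio of intestine Dam::BAF-1(G12T), and 99.0% of it is coding sequence of Y116A8A.6. The stretch chrIV:14780010-14780309 lies in the bin with the highest ratio of intestine Dam::BAF-1, outside coding genes, and is a tandem repeat that holds 11 GATC sites and 4 copies of a run of 54 bases. The stretch chrIV:14385404-14385703 lies in the bin that differed most clearly between the tissues, outside coding genes. The stretch chrIV:16488244-16488543 lies in the bin with the lowest ratio in the hypodermis and covers coding sequence (45%) and intron (55%) of rho-1, which encodes a small GTPase.
Bin at 16826001: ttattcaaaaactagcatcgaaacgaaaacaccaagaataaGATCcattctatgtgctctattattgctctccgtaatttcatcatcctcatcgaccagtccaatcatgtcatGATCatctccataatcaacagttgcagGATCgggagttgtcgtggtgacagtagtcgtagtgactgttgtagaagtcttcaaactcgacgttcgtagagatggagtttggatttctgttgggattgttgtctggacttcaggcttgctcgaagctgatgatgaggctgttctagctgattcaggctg
Bin at 14780001: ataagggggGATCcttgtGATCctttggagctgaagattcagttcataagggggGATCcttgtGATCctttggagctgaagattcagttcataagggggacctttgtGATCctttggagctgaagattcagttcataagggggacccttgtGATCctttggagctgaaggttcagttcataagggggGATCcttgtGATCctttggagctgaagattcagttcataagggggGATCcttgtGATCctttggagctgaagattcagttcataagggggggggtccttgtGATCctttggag
Bin at 14384001: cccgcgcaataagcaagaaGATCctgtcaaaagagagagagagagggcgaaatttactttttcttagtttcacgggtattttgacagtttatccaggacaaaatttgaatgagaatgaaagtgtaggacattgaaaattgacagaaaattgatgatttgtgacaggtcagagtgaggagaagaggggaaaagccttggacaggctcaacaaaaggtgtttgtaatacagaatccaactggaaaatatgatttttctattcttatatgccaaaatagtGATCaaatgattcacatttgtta
Bin at 16488001: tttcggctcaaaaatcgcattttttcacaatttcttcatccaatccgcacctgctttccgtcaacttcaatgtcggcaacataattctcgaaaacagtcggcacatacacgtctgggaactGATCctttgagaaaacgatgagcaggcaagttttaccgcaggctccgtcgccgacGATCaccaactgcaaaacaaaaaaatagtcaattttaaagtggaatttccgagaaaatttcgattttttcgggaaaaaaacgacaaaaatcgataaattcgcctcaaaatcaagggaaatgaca

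The values are log2 ratios of fusion to GFP::Dam, and each of the 12 columns was centred on the median of its tested bins. A value of 0 is thus the ratio of the median tested bin, and not as much methylation as with GFP::Dam. A bin was tested where at least 2 of 3 replicates differed from the most frequent value of their column, the value that a bin without reads takes. The region was read less completely than the background. In the region 1390 bins (75.1%) were tested for intestine Dam::BAF-1(G12T), 1502 (81.2%) for intestine Dam::BAF-1, 1434 (77.5%) for hypodermis Dam::BAF-1(G12T) and 1390 (75.1%) for hypodermis Dam::BAF-1. In the arms of II, III and V between 87.0% and 89.5% were tested. The region has 4.07 GATC sites per bin, against 5.15 in those arms, and its GC content is 32.3%, against 35.9%. Of its 663 bins with 5 or more GATC sites, 91.3% were tested in all 4 groups, and of its 83 bins without a site 1.20%. The 238 bins tested in no group had 1.37 GATC sites and 7.16 piRNA genes per bin, so bins dense in piRNA genes are among those seen least. The value of a bin without reads also differed between libraries. The lowest was that of hypodermis Dam::BAF-1 replicate 3, -1.76 as deposited, so that such a bin looks depleted there. In the region's bins of 1 to 2 GATC sites that group had means of 0.71, 0.49 and 0.003 in replicates 1 to 3. In intestine Dam::BAF-1 replicate 2 the most frequent value was 3.00 as deposited, whereas in the other columns it lay between -1.76 and 0.08. A bin without reads thus looks bound in that replicate. For intestine Dam::BAF-1 the means over the region, the counts of bound bins and genes and the difference by piRNA gene density are therefore also given with values at the most frequent value left out, an alternative chosen after seeing the data. Its overlaps, runs, windows, edges and families are given with such values in place. Leaving such values out still keeps bins with few reads, which can look bound in intestine Dam::BAF-1 replicate 2 as well.

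In both proteins the intestinal profile of the region stood above the arm background, and it did so most for Dam::BAF-1. With intestine Dam::BAF-1(G12T) the region's mean log2 ratio was 0.96, 1.09 and 1.55 in replicates 1 to 3 (1.20 ± 0.31, SD, n = 3), against 0.81 ± 0.13 in the arms. With intestine Dam::BAF-1 it was 0.88, 1.76 and 2.30 (1.65 ± 0.72), against 0.82 ± 0.20 in the arms. Replicate 1 of intestine Dam::BAF-1 was thus close to the arms and the other two were far above them. With hypodermis Dam::BAF-1(G12T) the region had 0.82, 1.30 and 0.96 (1.03 ± 0.25), against 0.80 ± 0.11 in the arms, and with hypodermis Dam::BAF-1 it had 0.86, 0.94 and 0.67 (0.82 ± 0.14), against 0.87 ± 0.11. The autosome centres averaged between -1.08 and -0.86 in the 4 groups, and no replicate of any group had the region below its centres.

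**Figure D1:**
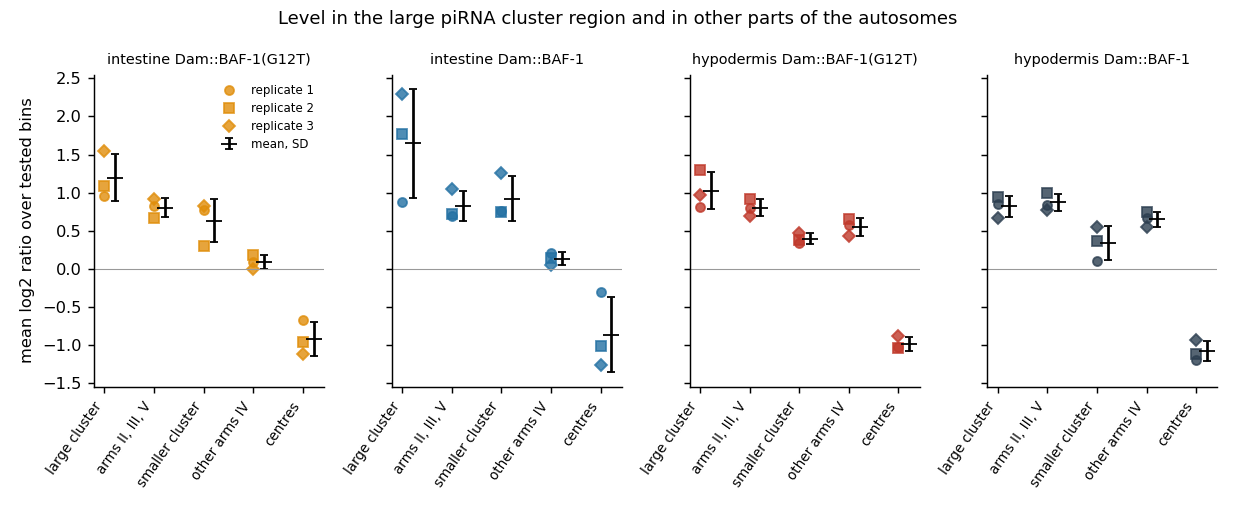
Mean log2 ratio over tested bins (y axis) in the large piRNA cluster region and in 4 other parts of the autosomes (x axis), 1 panel per fusion group, with a point per replicate and bars for the mean and SD of 3 replicates. The region stands highest in intestine Dam::BAF-1 replicates 2 and 3 (1.76 and 2.30) and is level with the arms in hypodermis Dam::BAF-1 (0.82 against 0.87).

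Taken within each replicate, the region minus the arms of II, III and V was 0.13, 0.42 and 0.62 for intestine Dam::BAF-1(G12T) (0.39 ± 0.25) and 0.19, 1.04 and 1.25 for intestine Dam::BAF-1 (0.83 ± 0.56). For hypodermis Dam::BAF-1(G12T) it was 0.02, 0.38 and 0.27 (0.22 ± 0.18). These 3 groups were above 0 in 3 of 3 replicates. Without a filter intestine Dam::BAF-1(G12T) gave 0.17 and hypodermis Dam::BAF-1(G12T) 0.095, each above 0 in 2 of 3, with replicate 1 at -0.11 in both. By medians both were again above 0 in 2 of 3, with replicate 1 of hypodermis Dam::BAF-1(G12T) at -0.08, and without replicate 2 the mean of that group was 0.145. In contrast, hypodermis Dam::BAF-1 gave 0.01, -0.06 and -0.10 (-0.05 ± 0.06), above 0 in 1 of 3, and its sign depended on the filter (0.03 ± 0.17 with values at the most frequent value left out). With that choice intestine Dam::BAF-1 gave 0.38, 1.02 and 1.25 (0.89 ± 0.45). No test was made of these means, because the region was chosen with earlier results of these data known. Single arms also spread widely. For intestine Dam::BAF-1 the region's 1.65 was above each of the 6 arms of II, III and V, which averaged between 0.18 (III left) and 1.09 (II left). In replicate 1 of that group, however, the region's 0.88 was below II left (0.90). For intestine Dam::BAF-1(G12T) the region's 1.20 was above arms that averaged between 0.02 (III left) and 1.14 (II left). In replicate 1 of that group the region's 0.96 was below II left (1.14), V right (1.01) and II right (0.98). For hypodermis Dam::BAF-1(G12T) the region's 1.03 was below II left (1.09) and V right (1.07), and for hypodermis Dam::BAF-1 the region's 0.82 lay among arms that ran between 0.65 (V left) and 1.16 (II left). On chromosome IV itself the region stood above the smaller piRNA cluster (by 0.56 ± 0.33, 0.73 ± 0.52, 0.63 ± 0.26 and 0.48 ± 0.32 for intestine Dam::BAF-1(G12T), intestine Dam::BAF-1, hypodermis Dam::BAF-1(G12T) and hypodermis Dam::BAF-1) and above the rest of the arms (by 1.11 ± 0.38, 1.51 ± 0.80, 0.47 ± 0.21 and 0.17 ± 0.04 in the same order), in 3 of 3 replicates each time.

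A bin was called bound where its mean ratio was above 0 by limma with a Benjamini-Hochberg adjusted p under 0.05 over all tested bins of the genome, and depleted where it was below 0. Bound bins of the region numbered 507 for intestine Dam::BAF-1(G12T) (36.5% of those tested, against 18.1% of all tested bins of the genome), 938 for intestine Dam::BAF-1 (62.5%, against 24.1%), 604 for hypodermis Dam::BAF-1(G12T) (42.1%, against 21%) and 353 for hypodermis Dam::BAF-1 (25.4%, against 16.4%). In the arms of II, III and V the shares were 31.0%, 38.5%, 39.4% and 31.2% in that order, so that hypodermis Dam::BAF-1 had a smaller share bound in the region than in the arms. Depleted bins were 66 (4.75%, against 16.0% of the genome), 93 (6.19%, against 22.0%), 84 (5.86%, against 23.3%) and 61 (4.39%, against 19.3%) in the same order. With values at the most frequent value left out, intestine Dam::BAF-1 had 980 bound and 101 depleted bins. Single replicates weigh on these counts. Bound bins were 291 without intestine Dam::BAF-1(G12T) replicate 3, 482 without replicate 2 and 554 without replicate 3 of intestine Dam::BAF-1, 357 without hypodermis Dam::BAF-1(G12T) replicate 2 and 54 without hypodermis Dam::BAF-1 replicate 2.

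**Figure D2:**
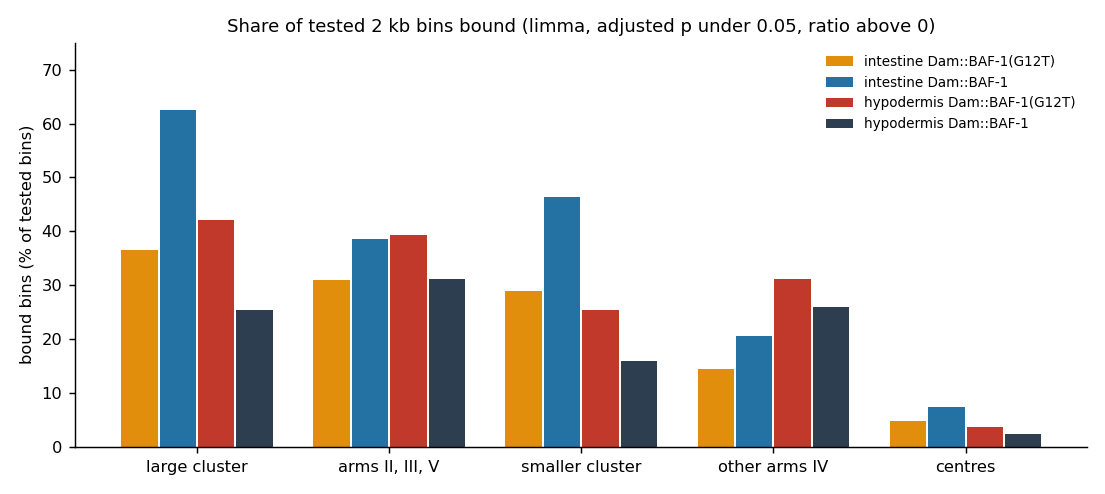
Share of tested 2 kb bins called bound (y axis, percent) in the large piRNA cluster region and in 4 other parts of the autosomes (x axis), with a bar per fusion group. In the region the share is 62.5% for intestine Dam::BAF-1 and 25.4% for hypodermis Dam::BAF-1, and in the centres it is highest for intestine Dam::BAF-1 (7.45%).

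Of the 1212 bins tested in all 4 groups, 248 were bound in all of them, 141 in 3 groups, 266 in 2, 236 in 1 and 321 in none. Bins bound in a single group belonged mostly to intestine Dam::BAF-1 (161 bins), then to hypodermis Dam::BAF-1(G12T) (47), hypodermis Dam::BAF-1 (19) and intestine Dam::BAF-1(G12T) (9). The 161 bins had 8.04 piRNA genes and 3.77 GATC sites per bin at 30.0% GC, whereas the 248 bins bound everywhere had 4.18 piRNA genes and 6.08 GATC sites at 35.9% GC. In the intestine 476 bins were bound by both proteins, 94.1% of those of BAF-1(G12T) and 57.1% of those of BAF-1. In the hypodermis the order was the other way round, with 306 shared bins that made up 51.6% of those of BAF-1(G12T) and 86.7% of those of BAF-1. In each tissue the higher share is that of the protein with fewer bound bins. Among bins tested for both proteins these were 506 of BAF-1(G12T) and 833 of BAF-1 in the intestine. In the hypodermis they were 593 and 353. Overlaps were not counted over the bins of the genome, so these counts are not shown to be particular to the region.

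Most runs of neighbouring bound bins were short. The median run covered 4 kb for both intestinal groups and 2 kb for both hypodermal ones, and 90 of the 253 runs of intestine Dam::BAF-1 were single bins. The longest unbroken run of intestine Dam::BAF-1 covered 50 kb, chrIV:14130001-14180000, against 24 kb for intestine Dam::BAF-1(G12T), 36 kb for hypodermis Dam::BAF-1(G12T) and 18 kb for hypodermis Dam::BAF-1. The 50 kb hold 133 piRNA genes and 10 protein-coding genes, among them srz-31 and srz-59, of the srz family of chemoreceptors, and oac-37 and oac-38, of a family of predicted O-acyltransferases. All 25 bins were bound in intestine Dam::BAF-1, which defined the run, and 14, 19 and 9 of them in intestine Dam::BAF-1(G12T), hypodermis Dam::BAF-1(G12T) and hypodermis Dam::BAF-1. Mean ratios over the run were 2.19, 1.54 and 2.74 for intestine Dam::BAF-1(G12T), 1.86, 3.44 and 4.55 for intestine Dam::BAF-1, 1.47, 2.37 and 1.88 for hypodermis Dam::BAF-1(G12T) and 0.90, 1.95 and 1.79 for hypodermis Dam::BAF-1. The replicates of the 4 groups overlap there. 21ur-6994, printed above, starts in this run.

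The region was not even along its length. In windows of 100 kb, 27 of 37 were above the arm mean for intestine Dam::BAF-1(G12T), 31 for intestine Dam::BAF-1, 24 for hypodermis Dam::BAF-1(G12T) and 19 for hypodermis Dam::BAF-1. The highest window of both intestinal groups began 0.7 Mb from the left edge, with 2.54 ± 0.28 for Dam::BAF-1(G12T) and 3.04 ± 1.00 for Dam::BAF-1, and the lowest began at 1.3 Mb, with -0.24 ± 0.22 and 0.10 ± 0.25. In the hypodermis the highest windows began at 3.4 Mb for Dam::BAF-1(G12T) (1.96 ± 0.23) and at 2.8 Mb for Dam::BAF-1 (1.83 ± 0.10), and the lowest at 2.9 Mb (-0.08 ± 0.23) and at 1.1 Mb (-0.52 ± 0.20). The window at 0.7 Mb holds 325 piRNA genes and 10 protein-coding genes and the one at 1.3 Mb holds 359 and 12, close to each other and to the median of 322 piRNA genes per window. Intestine Dam::BAF-1(G12T) was below intestine Dam::BAF-1 in 37 of 37 windows by mean, but all of its replicates lay below all of those of Dam::BAF-1 in 1 window. Hypodermis Dam::BAF-1(G12T) was above hypodermis Dam::BAF-1 in 31 windows, in 5 of them with no overlap.

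**Figure D3:**
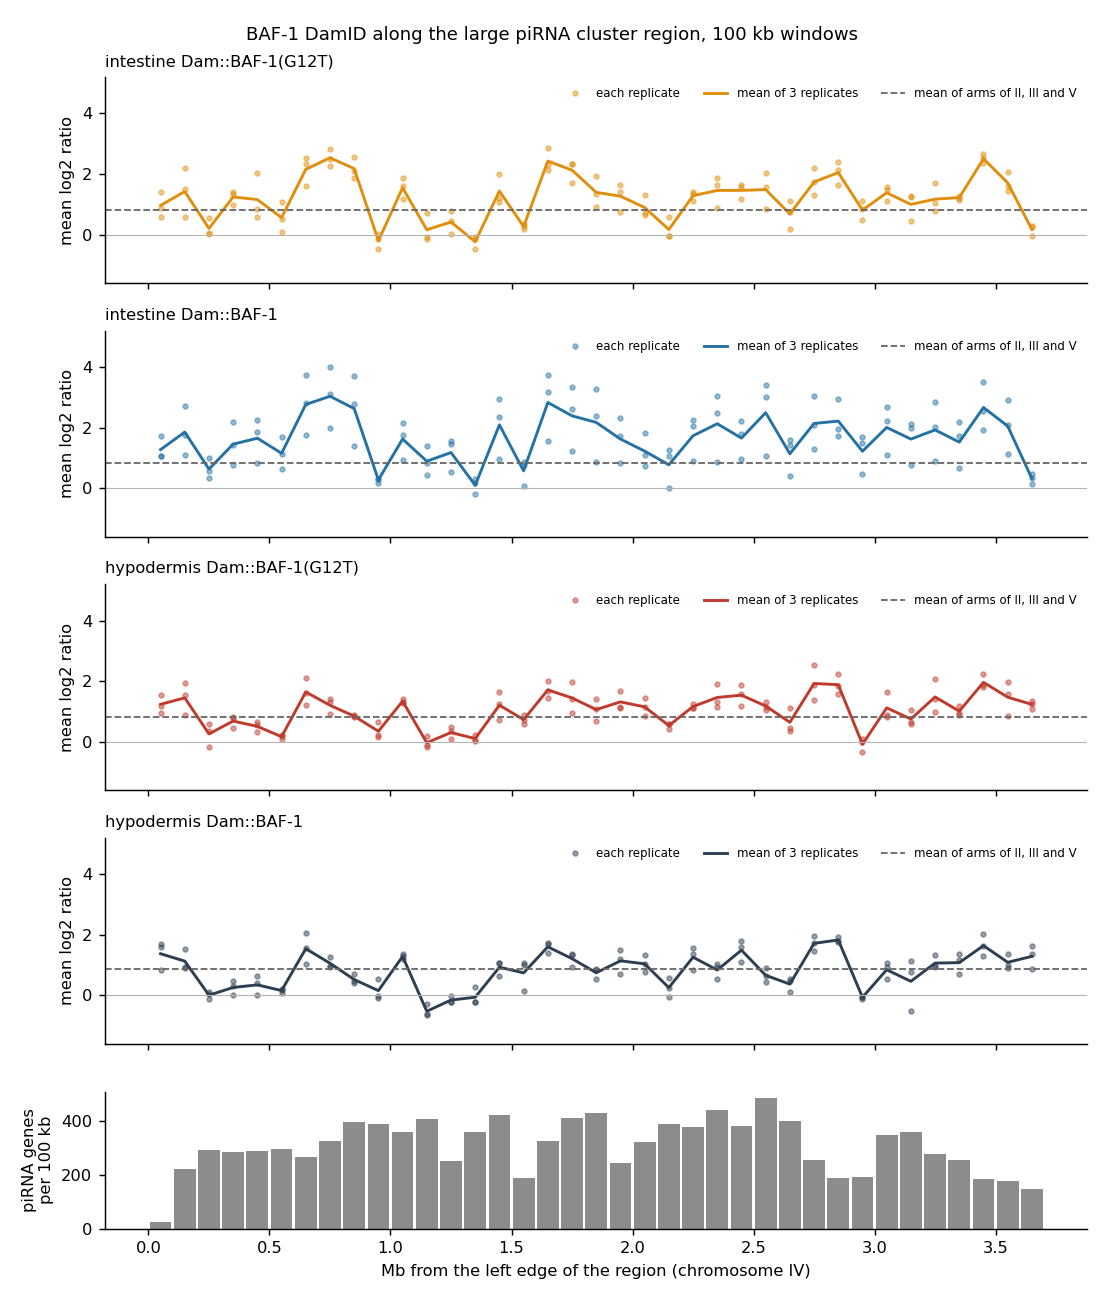
Mean log2 ratio of tested bins in windows of 100 kb (y axis of the upper 4 panels, points for replicates and a line for the mean of 3) and piRNA genes per window (lowest panel) against distance in Mb from the left edge of the region. The intestinal groups peak in the window at 0.7 Mb (2.54 and 3.04) and are lowest at 1.3 Mb (-0.24 and 0.10), while the last window is lower in the intestine than in the hypodermis for both proteins.

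The ratios were higher inside both edges than outside them. In the first 0.5 Mb of the region, with 1116 piRNA genes, the means were 1.00 ± 0.44, 1.37 ± 0.58, 0.85 ± 0.26 and 0.66 ± 0.17 for intestine Dam::BAF-1(G12T), intestine Dam::BAF-1, hypodermis Dam::BAF-1(G12T) and hypodermis Dam::BAF-1. In the 0.5 Mb before it, where 11 piRNA genes start, they were 0.24 ± 0.14, 0.26 ± 0.09, 0.37 ± 0.10 and 0.58 ± 0.12 in the same order. For hypodermis Dam::BAF-1 the step at this edge lies within the spread between replicates. At the right edge the last 0.5 Mb of the region had 1.34 ± 0.20, 1.65 ± 0.68, 1.44 ± 0.27 and 1.25 ± 0.28, and the 147 bins from there to the chromosome end had -0.31 ± 0.03, -0.16 ± 0.14, 0.49 ± 0.24 and 0.42 ± 0.21. At this edge the replicates inside and outside did not overlap in any group.

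Within the region the ratio varied with the number of piRNA genes in a bin, and not in the same way in all groups. Bins with 10 or more piRNA genes averaged 0.78, 2.33 and 2.83 with intestine Dam::BAF-1, against 0.69, 0.66 and 1.03 in bins without one, a difference of 1.18 ± 0.95 (3 of 3 replicates above 0), which was 1.33 with values at the most frequent value left out. With hypodermis Dam::BAF-1 they averaged 0.61, 0.60 and 0.38, against 0.85, 1.05 and 0.57, a difference of -0.30 ± 0.14 (0 of 3 above 0). For intestine Dam::BAF-1(G12T) the difference was 0.37 ± 0.67 (2 of 3 above 0) and for hypodermis Dam::BAF-1(G12T) 0.27 ± 0.21 (3 of 3). For intestine Dam::BAF-1(G12T) it was 0.76, 0.19 and 0.15 without replicates 1, 2 and 3, and for hypodermis Dam::BAF-1(G12T) 0.16 without replicate 2. With values at the most frequent value left out the difference for hypodermis Dam::BAF-1 was -0.17. In 3 of the groups the peak lay at 1 to 4 piRNA genes per bin, with means of 1.64 for intestine Dam::BAF-1(G12T), 1.37 for hypodermis Dam::BAF-1(G12T) and 1.27 for hypodermis Dam::BAF-1, whereas the means of intestine Dam::BAF-1 did not drop beyond that (1.83, 1.88 and 1.98 at 1 to 4, 5 to 9 and 10 or more). This rests on replicates 2 and 3, since replicate 1 had 1.10, 0.95 and 0.78 in these classes. The share of tested bins that were bound in the densest class was 31.8%, 72.6%, 34.9% and 13.6% for intestine Dam::BAF-1(G12T), intestine Dam::BAF-1, hypodermis Dam::BAF-1(G12T) and hypodermis Dam::BAF-1. In bins without a piRNA gene it was 32.3%, 38.3%, 36.8% and 32.6% in the same order. Only for intestine Dam::BAF-1 was the share higher in the densest class.

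Density of piRNA genes moves with other features of a bin. Bins with 10 or more piRNA genes had 3.20 GATC sites at 28.9% GC, and bins without one had 5.59 sites at 36.9% GC. Among bins of 3 to 6 GATC sites, a comparison added after seeing the data, the difference between the densest class and bins without piRNA genes was 0.72 ± 0.45, 1.52 ± 0.93, 0.42 ± 0.23 and -0.16 ± 0.17 for intestine Dam::BAF-1(G12T), intestine Dam::BAF-1, hypodermis Dam::BAF-1(G12T) and hypodermis Dam::BAF-1, in the same directions as over all bins, although 1 of 3 replicates of hypodermis Dam::BAF-1 was then above 0. Across bins the correlation of the mean ratio with the number of piRNA genes was weak in every group (Pearson's r of 0.02, 0.22, 0.00 and -0.15 in the same order, over 1390, 1502, 1434 and 1390 bins that share their libraries), and that with GC content was 0.09, -0.21, -0.01 and 0.19. The part of base composition in the differences between groups was not tested.

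**Figure D4:**
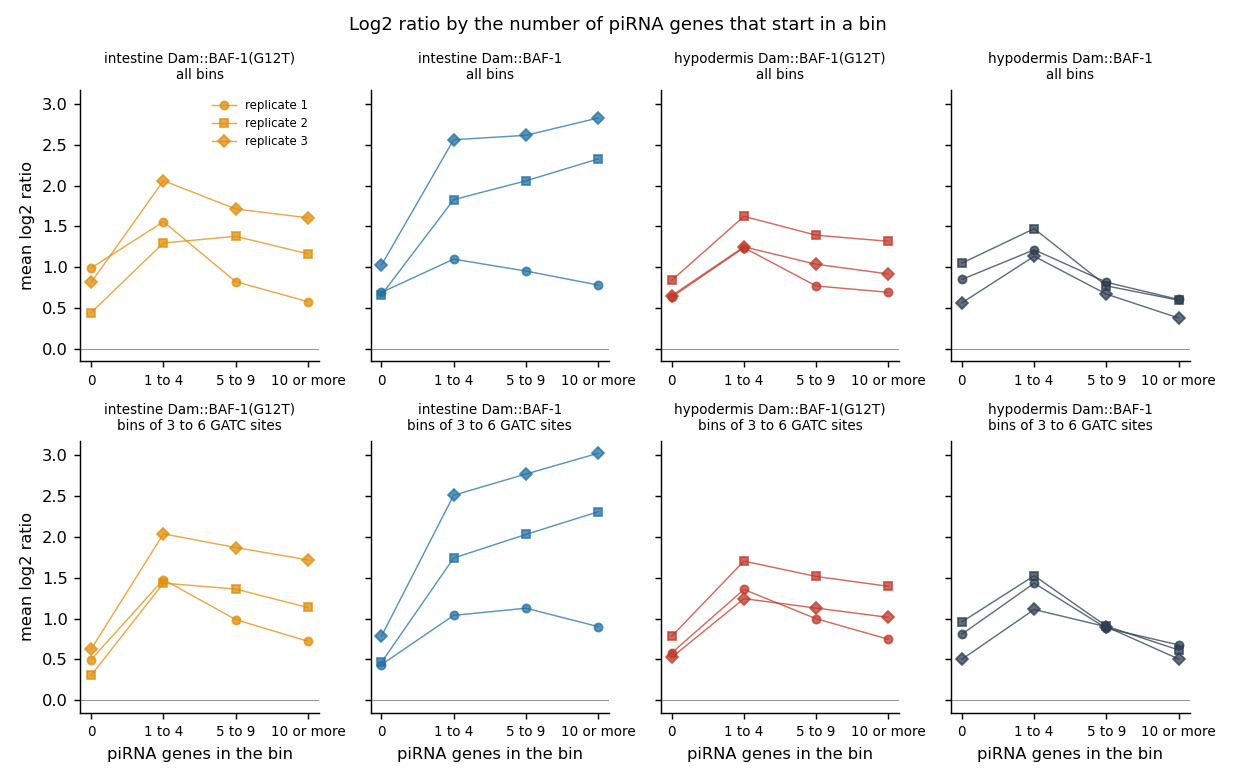
Mean log2 ratio (y axis) of bins with 0, 1 to 4, 5 to 9 and 10 or more piRNA genes (x axis) in each replicate, over all tested bins of the region (upper row) and over those of 3 to 6 GATC sites (lower row), 1 column of panels per fusion group. Intestine Dam::BAF-1 replicates 2 and 3 climb to 2.33 and 2.83 in the densest bins, whereas all 3 replicates of hypodermis Dam::BAF-1 end at or below 0.61.

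By gene, with windows that reach 500 bp beyond each end, piRNA genes made up most of the tested genes of the region, and also most of the called ones. Genes of any class called bound numbered 1653 of 6158 tested for intestine Dam::BAF-1(G12T) (26.8%, against 18.2% of all tested genes of the genome), 3808 of 7378 for intestine Dam::BAF-1 (51.6%, against 24%), 1915 of 6712 for hypodermis Dam::BAF-1(G12T) (28.5%, against 20.8%) and 937 of 6395 for hypodermis Dam::BAF-1 (14.7%, against 15.9%). Depleted genes were 286 (4.64%, against 18.7%), 263 (3.56%, against 22.8%), 301 (4.48%, against 24%) and 245 (3.83%, against 19%) in the same order. Since neighbouring windows overlap and share reads, the bound genes merged into 235, 341, 297 and 207 separate stretches. Of the piRNA genes tested in the region, 1375 of 5501 (25%, against 16.3% of piRNA genes elsewhere), 3488 of 6717 (51.9%, against 32.4%), 1607 of 6066 (26.5%, against 15.7%) and 708 of 5749 (12.3%, against 7.10%) were bound. In all groups but intestine Dam::BAF-1 these shares lay below those of all tested genes of the region. For intestine Dam::BAF-1 the number of bound genes was 4580 with values at the most frequent value left out. The gene counts rest on single replicates even more than those of bins. Without replicate 2, limma called 0 bound genes in the region for intestine Dam::BAF-1 (1668 above 0 at an unadjusted p under 0.05) and 0 for hypodermis Dam::BAF-1 (820), and without replicate 3 it called 652 for intestine Dam::BAF-1. It called 975 for intestine Dam::BAF-1(G12T) without replicate 3, and 2885, 1102 and 1142 for hypodermis Dam::BAF-1(G12T) without replicates 1, 2 and 3.

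piRNA genes with the motif in the 60 bases before them were bound about as often as those without it. The shares were 24% and 25.5% for intestine Dam::BAF-1(G12T), 49.9% and 53.0% for intestine Dam::BAF-1, 25.8% and 26.8% for hypodermis Dam::BAF-1(G12T) and 11.9% and 12.5% for hypodermis Dam::BAF-1, with the motif first each time. The presence of these letters says nothing of whether a gene is transcribed in these tissues.

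Among the other classes, protein-coding genes of the region were bound at higher shares than protein-coding genes elsewhere in each group. Bound protein-coding genes were 192 of 431 (44.5%, against 17.3% elsewhere) for intestine Dam::BAF-1(G12T), 231 of 443 (52.1%, against 16.5%) for intestine Dam::BAF-1, 229 of 431 (53.1%, against 21.5%) for hypodermis Dam::BAF-1(G12T) and 171 of 428 (40.0%, against 19.3%) for hypodermis Dam::BAF-1. The genes elsewhere include those of the chromosome centres, so this is no comparison within arms. Pseudogenes were bound in 59 of 107 (55.1%, against 35.9% elsewhere), 61 of 106 (57.5%, against 38.0%), 62 of 103 (60.2%, against 48.0%) and 42 of 104 (40.4%, against 39.1%) cases in the same order of groups, so that in hypodermis Dam::BAF-1 their share was close to that elsewhere. Of the tRNA genes, which RNA polymerase III transcribes, 3 of 22 (13.6%, against 3.82% of tRNA genes elsewhere), 2 of 22 (9.09%, against 3.89%), 0 of 21 (0%, against 4.09%) and 2 of 24 (8.33%, against 3.57%) were bound, while 3, 4, 8 and 3 were depleted.

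Gene families of the region are small, and they differed in how many of their members were bound. Of all protein-coding genes of the region, 44.5%, 52.1%, 53.1% and 40.0% were bound. The shares of the irld, clec and srz families were above these in all 4 groups, and those of the srt, sru, skr and pqn families were not. None of this was tested. All symbol classes with at least 5 protein-coding genes in the region were taken, and no member of any of them was depleted. The irld genes, which encode proteins with insulin or EGF receptor L domains, were bound in 4 of 6 tested for intestine Dam::BAF-1(G12T), 5 of 6 for intestine Dam::BAF-1, 5 of 5 for hypodermis Dam::BAF-1(G12T) and 4 of 5 for hypodermis Dam::BAF-1. irld-59 had 4.21, 2.65 and 3.72 in intestine Dam::BAF-1(G12T), 3.75, 2.41 and 3.87 in intestine Dam::BAF-1, 5.11, 3.24 and 2.61 in hypodermis Dam::BAF-1(G12T) and 5.13, 2.78 and 3.36 in hypodermis Dam::BAF-1, far above 0 in every replicate. The clec genes, of the C-type lectin fold, were bound in 4 of 6, 5 of 5, 3 of 5 and 4 of 5 in the same order, and clec-195 averaged 5.11 ± 0.32, 2.63 ± 1.10, 3.12 ± 0.29 and 3.12 ± 0.11. Chemoreceptor genes of the srz, srt and sru families also sit in the region. The srz genes were bound in 6 of 11, 10 of 12, 7 of 12 and 5 of 11, the srt genes in 2, 4, 3 and 3 of 5, and the sru genes in 0, 3, 2 and 1 of 5. The skr genes, which encode Skp1-related parts of ubiquitin ligases, were bound in 0 of 5 and 1 of 5 in the intestine, with Dam::BAF-1(G12T) and Dam::BAF-1, and in 5 of 5 and 2 of 5 in the hypodermis. 4 of them, skr-8, skr-9, skr-12 and skr-13, lie within the last 100 kb of the region, where the windows were lower in the intestine than in the hypodermis for both proteins (0.17 ± 0.19 against 1.23 ± 0.14 with BAF-1(G12T), and 0.32 ± 0.16 against 1.29 ± 0.39 with BAF-1). The pqn genes, rich in glutamine and asparagine, were bound in 1 of 4, 1 of 5, 2 of 3 and 0 of 3.

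The single bins with the highest ratios were bound in most groups at once. The bin that starts at 16826001, inside Y116A8A.6, had 6.96, 5.21 and 4.99 in intestine Dam::BAF-1(G12T), 3.97, 3.56 and 5.71 in intestine Dam::BAF-1, 4.73, 3.05 and 3.12 in hypodermis Dam::BAF-1(G12T) and 4.35, 3.57 and 1.70 in hypodermis Dam::BAF-1, and limma called it bound in all 4 (adjusted p of 0.0024, 1.8e-08, 0.00018 and 0.0019). It holds 8 GATC sites and no piRNA gene. The bin at 16936001, of which 75.2% is intron of Y116A8C.10, was highest in hypodermis Dam::BAF-1(G12T) with 6.24, 3.58 and 5.29, and had 4.34, 4.98 and 2.70 in hypodermis Dam::BAF-1. In both bins the replicates of the 4 groups overlap with those of another group. The bin at 16600001 holds col-137, a cuticle collagen gene, 17 piRNA genes among them 21ur-1372, and 12 GATC sites, and it averaged 5.11 ± 0.93 in intestine Dam::BAF-1(G12T), 4.65 ± 0.99 in intestine Dam::BAF-1, 2.79 ± 1.30 in hypodermis Dam::BAF-1(G12T) and 2.29 ± 1.49 in hypodermis Dam::BAF-1, bound in all 4.

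At the level of genes, these piRNA genes were also bound in all 4 groups. 21ur-1372, whose motif is shown above, had 6.13, 4.60 and 4.02 in intestine Dam::BAF-1(G12T), 3.81, 5.37 and 3.70 in intestine Dam::BAF-1, 2.95, 3.75 and 1.36 in hypodermis Dam::BAF-1(G12T) and 2.91, 3.27 and 0.50 in hypodermis Dam::BAF-1. 21ur-6994 had 3.60, 4.72 and 4.40, then 3.37, 4.29 and 6.12, then 3.29, 4.43 and 4.75, then 4.21, 3.62 and 3.70 in the same order of groups, so that all 12 values lie above 3. 21ur-14945 averaged 4.02 ± 1.57, 3.52 ± 0.08, 4.90 ± 1.12 and 4.23 ± 1.87. Among protein-coding genes, Y116A8A.6 averaged 5.31 ± 1.05 in intestine Dam::BAF-1(G12T) and WBGene00235305 averaged 4.17 ± 0.47 in intestine Dam::BAF-1.

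The repeat bin at 14780001, printed above, behaved differently. It had 7.15, 2.32 and 4.19 in intestine Dam::BAF-1(G12T) and 5.25, 3.84 and 5.92 in intestine Dam::BAF-1, against -0.60, 2.81 and 3.17 in hypodermis Dam::BAF-1(G12T), where the first value is one of a bin without reads, and it was not tested in hypodermis Dam::BAF-1, where 2 of 3 replicates were at that value. 91.8% of the bin lies outside coding genes, and it holds 15 GATC sites. The placement of reads that map to several copies of a repeat was not stated in the sources used.

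The 3 depleted bins described here averaged below 0 in every group. The rho-1 bin at 16488001 had -1.07, -3.26 and -1.46 in intestine Dam::BAF-1(G12T), -2.06, -1.89 and -1.58 in intestine Dam::BAF-1, -7.03, -4.47 and -2.91 in hypodermis Dam::BAF-1(G12T) and -6.86, -3.75 and -3.20 in hypodermis Dam::BAF-1, below 0 in 12 of 12 values. The bin at 15038001 covers eef-1B.2, which encodes a translation elongation factor subunit, and hrpu-1, an RNA-binding protein gene, and averaged -3.30 ± 1.06, -3.86 ± 1.03, -2.21 ± 1.02 and -2.11 ± 1.28 for intestine Dam::BAF-1(G12T), intestine Dam::BAF-1, hypodermis Dam::BAF-1(G12T) and hypodermis Dam::BAF-1. A bin dense in piRNA genes can be depleted as well: the bin at 14608001, with 15 piRNA genes, 7 GATC sites and no protein-coding gene, averaged -3.52 ± 2.24, -2.42 ± 0.32, -3.91 ± 1.82 and -4.13 ± 1.96 in the same order. Among genes, coq-3, for ubiquinone synthesis, averaged -2.89 ± 0.70, -2.79 ± 1.43, -3.64 ± 0.60 and -3.06 ± 0.16, and the protein-coding gene WBGene00185102 averaged -4.40 ± 1.19, -4.19 ± 1.51, -3.50 ± 1.54 and -3.40 ± 1.39, both depleted in every group.

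**Figure D5:**
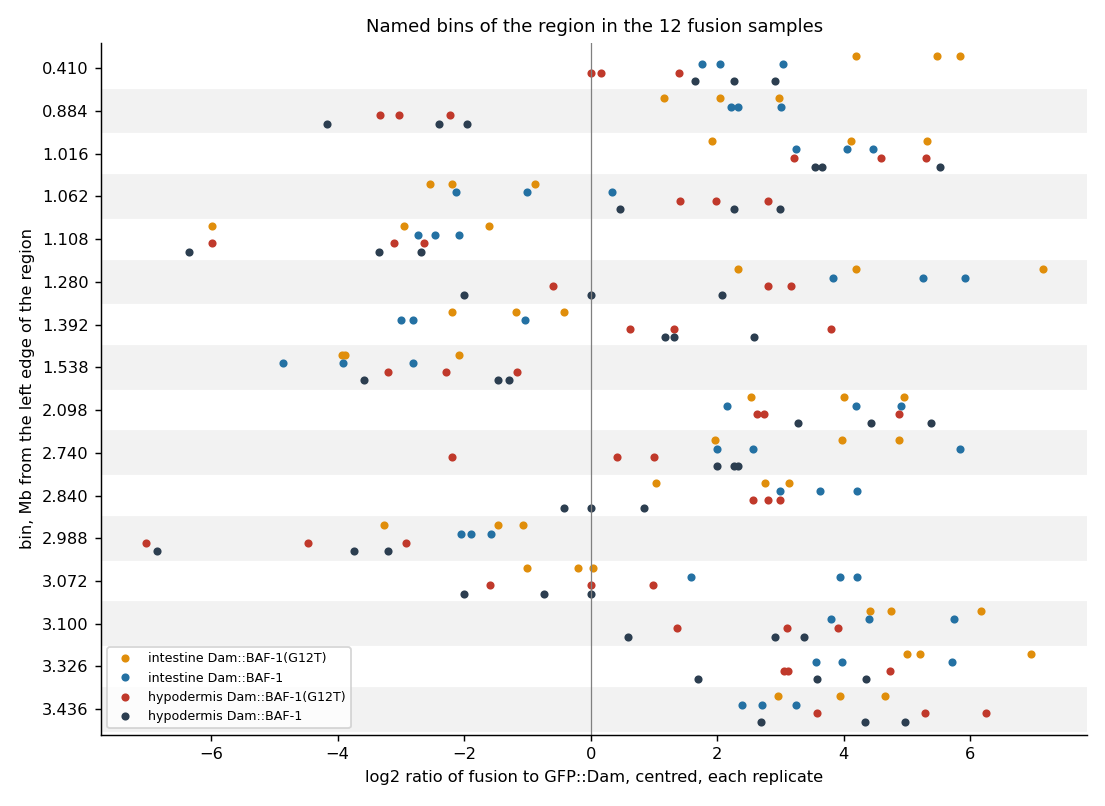
Centred log2 ratio (x axis) of each replicate in 16 named bins of the region, ordered down the page by distance in Mb from its left edge (y axis), with a colour per fusion group. In the bin that starts at 14384001 the intestinal values (1.15 to 3.00) lie above the hypodermal ones (-4.17 to -1.96), while the bins at 14608001, 15038001 and 16488001 are below 0 in all 12 values.

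The effect of the mutation was then compared within each tissue. No bin of the region differed between BAF-1(G12T) and BAF-1 by limma in the intestine (0 called of 1329, against 0% of all bins) or in the hypodermis (0 called of 1310, against 0%). At an unadjusted p under 0.05, 5 bins were higher and 106 lower with BAF-1(G12T) in the intestine (8.35% of the region's bins, against 3.31% of all), and 29 were higher and 8 lower in the hypodermis (2.82%, against 1.93%). The median difference over the region's bins was -0.30 in the intestine, against 0.02 over all bins, and 0.15 in the hypodermis, against -0.07. Over the whole region, relative to the arms, the mean difference was -0.43 in the intestine (-0.05, -0.62 and -0.63 between replicates of the same number), and the groups overlap. It was 0.27 in the hypodermis (0.01, 0.43 and 0.37), where the replicates do not overlap, although the lowest of Dam::BAF-1(G12T) and the highest of Dam::BAF-1 were 0.02 and 0.01. The intestinal value was -0.22 without intestine Dam::BAF-1 replicate 3 and -0.75 without its replicate 1, and the hypodermal one was between 0.19 and 0.37 with each replicate left out. Without reference to the arms, the differences were -0.45 in the intestine and 0.20 in the hypodermis with the median centring, and -0.28 and 0.12 with the centring of the deposited values.

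The bins closest to a difference between the proteins were as follows. In the intestine the bin at 13910001, in an intron of Y37A1A.2 with 1 GATC site and 8 piRNA genes, had 5.48, 5.83 and 4.20 with BAF-1(G12T), against 1.77, 3.05 and 2.04 with BAF-1, with no overlap, a difference of 2.84 ± 0.86 (SE, limma, adjusted p = 1.00). The bin at 16572001, outside coding genes, had 0.04, -1.0 and -0.19 with BAF-1(G12T), against 1.58, 4.21 and 3.94 with BAF-1, a difference of -3.68 ± 0.92 (SE, adjusted p = 1.00), and 1 of its 3 values with BAF-1(G12T) is that of a bin without reads. The 4.21 comes from intestine Dam::BAF-1 replicate 2. The most frequent value of that column was 3.00 as deposited, and a bin with few reads can look bound there. In the hypodermis the bin at 16340001 of srh-228, a chemoreceptor gene, had 2.57, 3.00 and 2.81 with BAF-1(G12T), against 0.00, 0.85 and -0.42 with BAF-1, a difference of 2.64 ± 0.71 (SE, adjusted p = 1.00). The 0.00 with BAF-1 is the value of a bin without reads. The bin at 16240001, outside coding genes, had -2.19, 0.42 and 1.0 with BAF-1(G12T), against 2.32, 2.26 and 2.0 with BAF-1, a difference of -2.46 ± 0.86 (SE, adjusted p = 1.00).

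The tissues, in contrast, differed in single bins. With BAF-1(G12T), 34 bins of the region were higher and 12 lower in the intestine than in the hypodermis of 1299 tested (2.62% and 0.924%), against 4.07% and 1.92% of all bins, both below the shares of the genome. With BAF-1, 54 were higher and 11 lower of 1332 (4.05% and 0.826%), against 3.60% and 2.25%. With the centring of the deposited values these were 43 and 28. The counts rest on single replicates. With BAF-1(G12T), limma called 0 bins in either direction without hypodermis replicate 1 (100 higher and 73 lower at an unadjusted p under 0.05), 6 higher and 1 lower without hypodermis replicate 2, 14 and 4 without hypodermis replicate 3, 10 higher without intestine replicate 3 and 20 lower without intestine replicate 2. With BAF-1 it called 0 without intestine replicate 3 (122 and 48 at an unadjusted p under 0.05), 10 and 2 without intestine replicate 2, 202 and 23 without intestine replicate 1, 16 and 1 without hypodermis replicate 2 and 7 lower without hypodermis replicate 1. The mean of the region relative to the arms was higher in the intestine by 0.17 with BAF-1(G12T) (0.11, 0.04 and 0.36 by replicate number, with overlap) and by 0.88 with BAF-1 (0.18, 1.10 and 1.36, without overlap). With BAF-1(G12T) the value was 0.05 without intestine replicate 3, 0.30 without intestine replicate 1, 0.07 without hypodermis replicate 1 and 0.07 without a filter. Without reference to the arms and with the centring of the deposited values it was 0.11 with BAF-1(G12T) and 0.51 with BAF-1, and with the median centring 0.17 and 0.82.

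The bin at 14384001, printed above, had the smallest p for both proteins. With BAF-1(G12T) it had 1.15, 2.04 and 2.98 in the intestine, against -3.34, -3.02 and -2.22 in the hypodermis, and these differ by 4.91 ± 0.81 (SE, limma, adjusted p = 0.0053). With BAF-1 it had 2.32, 2.21 and 3.00, against -4.17, -2.40 and -1.96, which gives 5.39 ± 0.88 (SE, adjusted p = 0.0034). The 2.21 of intestine Dam::BAF-1 replicate 2 lies below the value that a bin without reads takes in that column. The bin was bound in both intestinal groups and depleted in both hypodermal ones, and holds 8 piRNA genes, 5 GATC sites and no protein-coding gene. In the other direction, the bin at 14562001, outside coding genes and with 10 piRNA genes, had -2.55, -0.87 and -2.19 in the intestine, against 1.98, 1.42 and 2.81 in the hypodermis with BAF-1(G12T), which differ by -3.95 ± 0.81 (SE, limma, adjusted p = 0.012). The bin at 14892001, of which 87.9% is intron of eps-8, a gene for an actin-binding protein, had -3.0, -1.03 and -2.81 in the intestine, against 2.58, 1.17 and 1.32 in the hypodermis with BAF-1, a gap of -3.94 ± 0.89 (SE, adjusted p = 0.013). The largest tissue difference of a window was that beginning at 0.8 Mb, which contains the bin at 14384001, with 2.18 ± 0.36 against 0.85 ± 0.03 for BAF-1(G12T) and 2.63 ± 1.16 against 0.52 ± 0.17 for BAF-1.

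The difference between the tissues in the effect of the mutation was tested per bin in 1 fit over the 4 groups. This fit held no replicate block, although the replicate numbers pair the proteins within a tissue. limma called 0 of the 1212 bins of the region, against 0% of the 42300 bins tested, and at an unadjusted p under 0.05, 5 bins had a more positive and 102 a more negative effect of BAF-1(G12T) in the intestine (8.83% of the region's bins, against 3.48% of all).

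Over bins the profiles of the proteins correlated more closely than those of the tissues. Mean ratios of BAF-1(G12T) and BAF-1 correlated with Pearson's r of 0.80 over 1329 bins of the region in the intestine and 0.85 over 1310 bins in the hypodermis, against 0.89 in the arms in each tissue. Intestine and hypodermis correlated with 0.65 over 1299 bins for BAF-1(G12T) and 0.55 over 1332 bins for BAF-1, against 0.58 and 0.53 in the arms. Replicates of 1 group correlated with each other over the region's bins with r between 0.42 and 0.79. Bins of a library are not independent, and these values are descriptions.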

How the data were processed

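Binding was measured by DamID in 24 libraries that form 8 groups of 3 replicates, with libraries made from 400 ng of DNA and 22 PCR cycles. Per replicate, the authors counted reads at GATC sites in bins of 2 kb and in gene windows that reach 500 bp beyond both ends, and deposited the log2 ratio of relative reads, fusion over GFP::Dam with a pseudocount of 1 and the mean subtracted. The ce11 build and DESeq2 are named in the submitters' processing notes. The aligner and the handling of reads with several matches were not stated in the sources used, and log2 ratios carry no depth. The paper lists reads per library, which did not enter the fits. By its list, intestine Dam::BAF-1 replicate 2 had the fewest reads at GATC sites of the 24 libraries, and replicate 1 of that group the next fewest. The tables also hold averages and adjusted p-values of the authors, which were not used. Group and tissue were read from the name of a table and the replicate number from its column.

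A feature was tested where at least 2 of 3 values differed from the most frequent value of their column, and columns were centred on the median of tested features. Since the tables hold ratios and no counts, limma (3.58.1, R 4.3.3) with robust empirical Bayes and Benjamini-Hochberg adjustment at 0.05 over all tested features was used, after it was tested on simulated data. Annotation, GATC sites and motifs came from WBcel235 with Python 3.11.15 and pandas 2.3.3, and 46287 of 46374 genes in the tables had an annotated start. The region, the gene lists and the tests were chosen with earlier results of these data known.

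Named bins were, in each fusion group, the 2 bound bins with the highest mean ratio (all replicates above 0, at least 10 kb apart) and the lowest depleted bin, and for each difference the bin with the smallest p in each direction. Named genes were the highest bound piRNA and protein-coding gene and the lowest depleted protein-coding gene of each group. Families were symbol classes with at least 5 protein-coding genes in the region. A named piRNA gene and its bin are not reported here. Windows, runs and edges were described after their values were seen. Replicates of the same number deviated together within a tissue (r of 0.27, 0.26 and 0.37 in the intestine and 0.41, 0.30 and 0.26 in the hypodermis), so that the numbers pair the proteins, and they did not between tissues (r between -0.11 and 0.09). Alternatives were other filters, centring and backgrounds, a replicate block and leaving out each replicate. Leaving out values at the most frequent value and taking bins of 3 to 6 GATC sites were added after seeing the data.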

Additional observations from a re-analysis of the deposited data

Results flagged for a closer look

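By mean, the difference between BAF-1(G12T) and BAF-1 over the region had opposite signs in the intestine and the hypodermis. Relative to the arms of II, III and V, the mean with BAF-1(G12T) was lower than with BAF-1 in the intestine (-0.43) and higher in the hypodermis (0.27), a difference of -0.71 on the log2 scale. By replicates of the same number the difference was -0.07, -1.06 and -1.0, and the protein differences were below 0 in 3 of 3 pairs in the intestine and above 0 in 3 of 3 pairs in the hypodermis. This difference of means was not tested. The value that a bin without reads takes also differs between these columns, and its part in the difference was not tested. Replicate 1 contributes little to it in either tissue. The test of the same difference in each bin called 0 of 1212 bins of the region by limma, with 107 at an unadjusted p under 0.05, of which 5 were higher and 102 lower. The genotype of the animals changed with the protein, so protein and genotype cannot be told apart.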

How the results depend on the processing

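Directions and calls of named bins and genes were mostly stable: over settings other than leaving out a replicate 139 values stayed on their side of the threshold and 3 lost their call (21ur-14945, Y116A8C.10 and coq-3 in hypodermis Dam::BAF-1(G12T) without a filter), and with 1 replicate left out 109 stayed and 11 lost it, with 0 reversed. The region minus the arms reversed for hypodermis Dam::BAF-1, at 0.072 when all 3 replicates had to differ from the most frequent value and 0.029 with such values left out, and was -0.18 by medians and -0.24 without a filter. The hypodermal protein difference was 0.12 in the deposited values without reference to the arms, and 0.20 without that reference in median-centred values. The deposited medians of tested bins lie between -0.22 and 0.24. Without a filter 133 genes were bound for hypodermis Dam::BAF-1(G12T) and 1586 for hypodermis Dam::BAF-1. Bound genes merged into 235, 341, 297 and 207 stretches for intestine Dam::BAF-1(G12T), intestine Dam::BAF-1, hypodermis Dam::BAF-1(G12T) and hypodermis Dam::BAF-1, by construction fewer than genes. For the other changes the cause was not tested.

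Between tissues with BAF-1(G12T), bins lower in the intestine were 4 without a filter and 19 with all 3 replicates required. With BAF-1 they were 17, 18, 28 with the deposited centring and 17 with values at the most frequent value left out, where 95 were higher. With the replicate block 17 bins were higher and 5 lower with BAF-1(G12T), and 45 and 10 with BAF-1, though the numbers do not pair the tissues. In the paired fit of the proteins limma called 0 bins in either tissue (193 in the intestine and 87 in the hypodermis at an unadjusted p under 0.05).

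With each replicate left out, bound bins ranged between 291 and 544 for intestine Dam::BAF-1(G12T), 482 and 1034 for intestine Dam::BAF-1, 357 and 627 for hypodermis Dam::BAF-1(G12T) and 54 and 361 for hypodermis Dam::BAF-1. Bound genes ranged between 975 and 1297, 0 and 5252, 1102 and 2885, and 0 and 1077 in the same order. Between tissues, higher bins ranged between 0 and 48 with BAF-1(G12T) and 0 and 202 with BAF-1, and lower bins between 0 and 20, and 0 and 23. Replicates per group were 3 and ratios carry no read depth, so bins with few GATC sites, which include those densest in piRNA genes, are known least.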
